A study of Caenorhabditis elegans with 8 samples.

Results

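Eating double-stranded RNA against a gene makes Caenorhabditis elegans build small RNAs against that gene, and the results below compare those small RNAs between wild-type and rde-12 animals eating a sel-1 trigger. The comparison takes in 4 of the 8 small RNA libraries of the study, all those from the trigger food, with 24 counts in all. All animals were whole young adults, synchronised as larvae and fed for 50 h at 20 °C, with about 50000 worms pooled per sample. The 2 wild-type libraries came from N2, the standard laboratory strain, fed HT115 bacteria that carry the sel-1 RNAi trigger. The 2 mutant libraries came from rde-12(hj41) animals on the same food. A single rde-12 allele was studied, and the labels name no HT115 food without the trigger. The other 4 libraries, 2 of N2 and 2 of rde-12(hj41), came from animals on OP50, another strain of Escherichia coli. Libraries held RNA of 20 to 26 nt treated with TAP, which lets RNAs with a triphosphate end enter a library.

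In worm RNA interference, Dicer first cuts the eaten double-stranded RNA into primary small RNAs, which the Argonaute RDE-1 carries to the matching messenger RNA. RNA-dependent RNA polymerases then copy that messenger into many secondary small RNAs, which begin with a triphosphate and act through other Argonautes. Secondary small RNAs are antisense to the messenger, and they can lie outside the stretch that the trigger matches. RDE-12 is a DEAD-box helicase that the study's title places in the amplification step. The target, sel-1, encodes a membrane protein of the endoplasmic reticulum that works in protein degradation and was found as a negative regulator of Notch signalling. In the Ensembl annotation of assembly WBcel235, sel-1 (F45D3.5) lies on chromosome V and has 1 transcript of 6 exons with a spliced length of 2384 nt.

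Each library had a count for the part of sel-1 upstream of the trigger (towards the 5′ end), for the trigger, and for the part downstream of it (towards the 3′ end). These 3 regions were listed in 2 blocks of 12 counts, called first and second by their place in the table. The sources used here do not say what separates the blocks, nor which counts are primary and which are secondary small RNAs. The ends of the trigger within sel-1 and the build behind the counts are not given either. Counts could therefore not be set per base, and each region is compared between genotypes, not with another region as a density. The total depth of these 4 libraries was not analysed here, so counts are given per library as deposited. The animals were measured whole, so fewer cells making small RNAs and fewer small RNAs per cell cannot be told apart.

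Small RNAs of the first block were scarce in rde-12 in all 3 regions, and the loss was steepest upstream of the trigger. Upstream counts were 165885 and 154267 in N2 replicates 1 and 2, and 2197 and 2882 in rde-12 replicates 1 and 2. The lower wild-type library held 53.5 times as many as the higher mutant library, so the genotypes were far apart. In the mean, rde-12 kept 1.59% of the wild-type upstream count. Within the trigger, counts were 555816 and 484860 in N2, and 11348 and 15533 in rde-12. The mutant mean was 2.58% of the wild-type mean, and the fold loss lay between 31.2 and 48.98 over the 4 pairings of a wild-type with a mutant library. Downstream of the trigger, counts were 39047 and 35576 in N2, and 5935 and 8139 in rde-12. Here the mutant kept 18.9%, with fold losses between 4.37 and 6.58 over the 4 pairings. The range of pairwise losses downstream did not reach that of the trigger, and the trigger range ended below the lowest upstream loss.

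**Figure D1:**
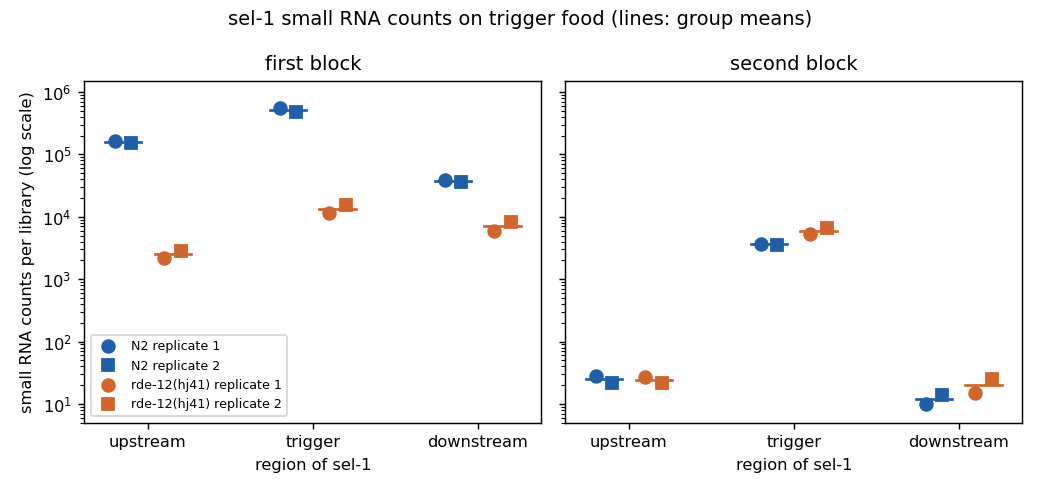
Small RNA counts per library (log scale) by region of sel-1, with the first block on the left and the second on the right; blue symbols are N2, orange symbols rde-12(hj41), circles replicate 1, squares replicate 2 and lines group means. All 3 first-block regions are lower in both mutant libraries, whereas in the second block the trigger counts of 3661 and 3591 in N2 lie below those of 5362 and 6671 in rde-12.

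The 6 counts per library were fitted together with edgeR's quasi-likelihood test, and a call needed a Benjamini-Hochberg adjusted p below 0.05. Of the 6, 3 were called lower in the mutant, which is 50% of those tested. These were the first-block counts upstream (log2 change −5.98 ± 0.364, SE; adjusted p = 8.24e-09), in the trigger (−5.27 ± 0.396; 4.44e-08) and downstream (−2.41 ± 0.275; 2.99e-06). The other call was a rise of the second-block trigger, 16.7% of those tested. The 6 counts of a library share its depth, and the test treats them as separate, so these p-values can be too small. For each of the 3 first-block regions the exact permutation test, two-sided, returned p = 0.33, and with 2 libraries against 2 no smaller value is possible.

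In absolute numbers the trigger carried most of the loss. Between the genotype means the first block lost 694708 counts per library. Of these, 72.97% came from the trigger, 22.7% from upstream and 4.36% from downstream. The first block as a whole held 760748 and 674703 counts in N2, and 19480 and 26554 in rde-12, a 31.2-fold difference of means.

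What remained in rde-12 had another make-up than the wild-type first block. The upstream share of the first block was 21.8% and 22.9% in the wild-type libraries, and 11.3% and 10.9% in the mutant ones. The trigger share was 73.1% and 71.9% against 58.3% and 58.5%. Downstream small RNAs took 5.13% and 5.27% in the wild type, but 30.5% and 30.7% in the mutant. In each of these 3 shares the replicates of a genotype lay close together, and the genotypes did not overlap. Counts outside the trigger, upstream and downstream together, made up 27.5% ± 0.848 of it in the wild type and 41.6% ± 0.171 in the mutant (mean ± SD of 2 libraries). Of those outside counts, the upstream side held 81.1% ± 0.222 in the wild type and 26.6% ± 0.613 in the mutant. Wild-type animals thus had most of their outside counts on the 5′ side of the trigger, and mutants had most on the 3′ side. Each share had an exact permutation p of 0.33.

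**Figure D2:**
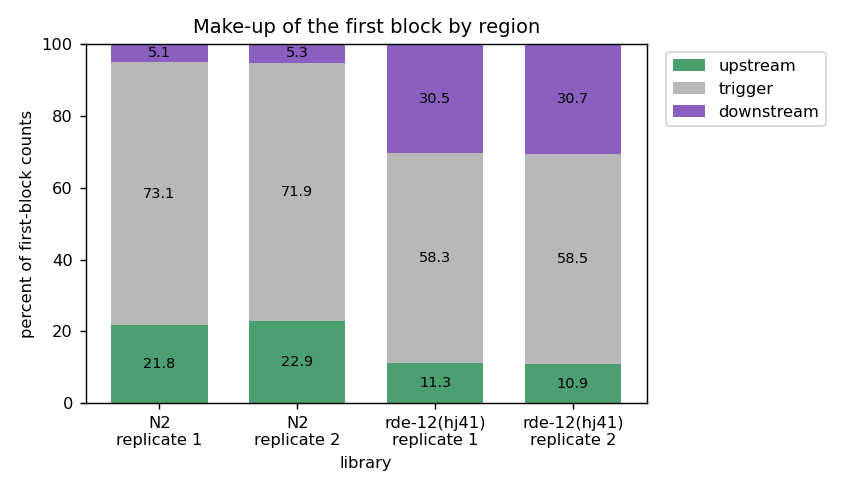
Percent of first-block counts that fell upstream of the trigger (green), in it (grey) and downstream of it (purple), with 1 stacked bar per library and the percent printed in each part. The downstream part takes 5.13% and 5.27% of the wild-type bars and 30.5% and 30.7% of the mutant bars.

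The difference in make-up can also be read in counts. At the wild-type make-up, the 19480 first-block counts of rde-12 replicate 1 would have held 1014 downstream counts, and 5935 were measured. For replicate 2 the same reckoning gave 1382, and 8139 were measured. Both mutant libraries thus held close to the same excess, 5.86 and 5.89 times the count at wild-type make-up. Upstream, 4351 and 5931 would have been held and 2197 and 2882 were measured, 0.505 and 0.486 times as many. In the trigger the measured counts were 0.804 and 0.807 times those at wild-type make-up.

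The second block held far fewer small RNAs, nearly all in the trigger, and none of its regions was called lower in the mutant. Its trigger counts were 3661 and 3591 in N2, and 5362 and 6671 in rde-12. Both mutant libraries were higher, by 1.46 to 1.86 times over the 4 pairings. The edgeR adjusted p was 0.0121, at a log2 change of 0.73 ± 0.230 (SE), and the exact permutation p was 0.33. Without N2 replicate 1 the log2 change was still 0.74, and without N2 replicate 2 it was 0.72, but edgeR called neither. It was 0.88 without rde-12 replicate 1 and 0.56 without rde-12 replicate 2, both still called. Scaled to the second-block sum, which is nearly all trigger, the log2 change was 0.00.

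Outside the trigger, second-block counts were few, at 10 to 28 per library. Upstream counts were 28 and 22 in N2, and 27 and 22 in rde-12. The genotypes overlapped, and each count carried a wide error, from 18.6 to 40.5 for the highest (exact 95% Poisson interval, counting error only). Downstream counts were 10 and 14 in N2, and 15 and 25 in rde-12. These did not overlap, but they missed the threshold (log2 change 0.73 ± 0.474; edgeR adjusted p = 0.178). Together the outside counts made up 1.0% ± 0.0246 of the wild-type second block and 0.738% ± 0.0549 of the mutant one. The corresponding first-block shares were 27.5% and 41.6%, so in each genotype the first block held a larger share of its counts beyond the trigger.

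The balance between blocks, which does not depend on depth, differed between genotypes in each region. In the wild-type trigger, 0.695% ± 0.0571 of the counts of both blocks lay in the second block, and in the mutant trigger 31.1% ± 1.45 did (SD, n = 2). Upstream the second block had 0.0156% ± 0.00185 of the wild-type counts and 0.986% ± 0.323 of the mutant ones. Downstream it had 0.0325% ± 0.00971 and 0.279% ± 0.0383. No library of either genotype overlapped with the other genotype in these 3 shares. For each, the exact permutation p was 0.33.

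A ratio of counts within a library does not depend on its depth, and so shows whether regions changed unequally. All 15 ratios between pairs of the 6 counts were compared with limma on the log2 scale with a pseudocount of 0.5. Of these, 12 (80%) differed between genotypes after Benjamini-Hochberg adjustment over the 15, and 13 had libraries that did not overlap. Each ratio had the earlier region on top, in the order upstream, trigger, downstream of the first block and then of the second. The 12 called ratios were lower in the mutant that way up, and inverting a ratio turns its direction. The 15 ratios are built from 6 counts and depend on each other. The fit draws the spreads of the ratios together, which can make errors and p-values too small for ratios that rest on the low upstream or downstream counts of the second block, called ones included.

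Within the first block, all 3 ratios were called by limma. For each downstream count, the wild-type libraries held 4.25 and 4.34 upstream counts and the mutant libraries 0.370 and 0.354 (log2 difference −3.57 ± 0.107, SE; adjusted p = 7.89e-05). Upstream counts outnumbered downstream counts in both wild-type libraries and were outnumbered in both mutant ones. Trigger counts per downstream count were 14.2 and 13.6 in wild type against 1.91 and 1.91 (limma log2 difference −2.87 ± 0.107; adjusted p = 0.00011). The smallest of the 3 differences was between upstream and trigger. Upstream counts per trigger count were 0.298 and 0.318 in wild type against 0.194 and 0.186 (limma log2 difference −0.70 ± 0.112; adjusted p = 0.00628). Without rde-12 replicate 1 the log2 difference was −0.73, and without rde-12 replicate 2 it was −0.67. Limma lost this call in both fits, where every ratio, low-count ones included, was given the same SE of 0.339. The lost calls thus came with a larger error and little change in the difference. With no library dropped and regions averaging under 100 counts left out, limma kept the call (adjusted p = 2.66e-07), also at 1 shared error. The downstream loss thus stood apart from both other regions by more than these stood apart from each other.

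Between blocks, 151.8 and 135 first-block trigger counts stood beside each second-block trigger count in the wild type, and 2.12 and 2.33 did in the mutant (limma log2 difference −6.01 ± 0.132, SE; adjusted p = 3.97e-05). Upstream first-block counts per second-block trigger count were 45.3 and 42.96 in wild type against 0.410 and 0.432 (limma log2 difference −6.71 ± 0.112; adjusted p = 2.95e-05). Wild-type libraries held many upstream first-block small RNAs for each second-block trigger count, and mutant libraries held fewer than 1. For the downstream region the ratio was 10.7 and 9.91 in wild type against 1.11 and 1.22 (limma log2 difference −3.14 ± 0.123; adjusted p = 0.00011). Within the second block none of the 3 ratios passed limma's threshold over the 4 libraries. Without rde-12 replicate 1, limma called upstream per trigger (log2 difference −1.05; adjusted p = 0.00845) and upstream per downstream (−1.22; adjusted p = 0.00332), both lower in the mutant. Over all 4 libraries upstream counts per trigger count came closest, at 0.00765 and 0.00613 in wild type against 0.00504 and 0.0033 (log2 difference −0.75 ± 0.277; adjusted p = 0.0715).

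How many regions were called higher depended on the scale, since depth was not known. It was 1 for the counts as deposited and 0 when scaled to the second-block sum. The second-block trigger is nearly all of that sum, so that scale fixes it near no change and cannot test its rise. Scaled to the second-block sum of each library, the first-block log2 changes were −6.71 upstream, −6.01 in the trigger and −3.14 downstream, and edgeR called all 3 (adjusted p up to 0.000181). Scaled to the first-block downstream count, which sets that region to no change, upstream and trigger were still lower, at −3.57 and −2.87. On that scale the second-block trigger was higher by 3.14, and edgeR called all 3 second-block regions higher. A scale moves all regions of a library alike, so on each the change was lowest upstream, then in the trigger, then downstream, and highest of these 4 in the second-block trigger.

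**Figure D3:**
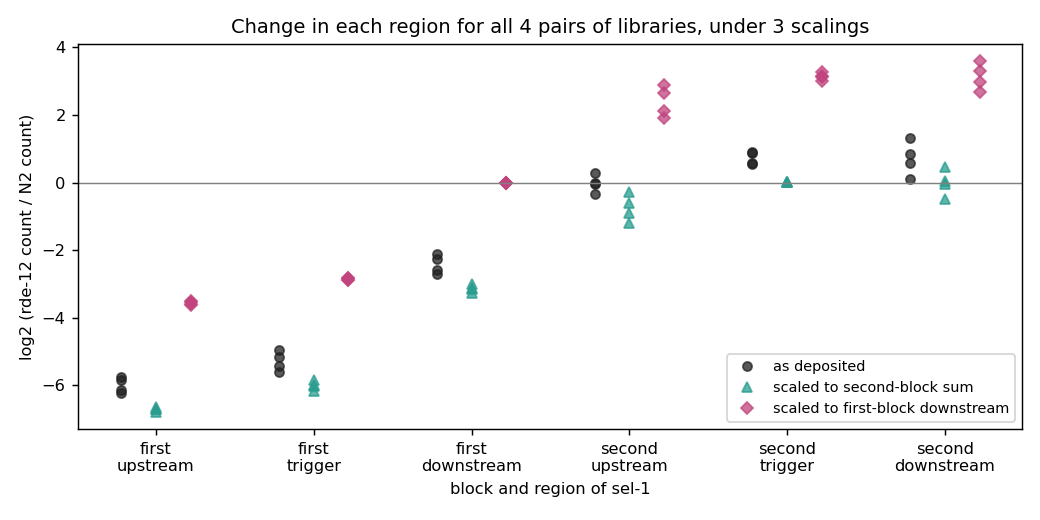
log2 of the rde-12 count over the N2 count for each block and region, with 1 point for each of the 4 pairings of a wild-type with a mutant library; black circles are counts as deposited, green triangles are scaled to the second-block sum and pink diamonds to the first-block downstream count. Scaling moves all points of a library together and leaves the spacing between regions: first-block upstream and trigger lie below 0 on all 3 scales, and the second-block trigger lies at or above 0.

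Replicates of a genotype differed in first-block level more than counting noise alone gives. In N2 the standard deviation of the first-block counts was 5.13% to 9.64% of their mean, where counting error would be 0.139% to 0.518%. In rde-12 it was 19.1% to 22.1%, where counting error would be 0.863% to 1.98%. The mutant libraries differed mostly by a common factor, with replicate 2 holding 1.31, 1.37 and 1.37 times the counts of replicate 1 upstream, in the trigger and downstream. Replicate 2 also held 1.24 times the second-block trigger count. Their first-block make-up differed by no more than counting noise, with a chi-square of 1.04 per degree of freedom, whereas for the N2 replicates it was 132. Chi-square grows with the number of counts, and the N2 first block held 31.2 times as many in the mean. The values 1.04 and 132 thus do not compare how alike the replicates of each genotype were. In N2 the trigger share was 73.1% and 71.9%. Over all 6 counts the chi-square per degree of freedom was 5.04 for the rde-12 replicates. These values take reads as independent molecules. The labels call them biological samples, and p-values measure only the spread between these samples.

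The size of the sel-1 losses can be set beside those of the animals' own small RNA targets on OP50. On that food, 268 of 1931 genes tested were lower in rde-12 (13.9%; edgeR adjusted p under 0.05) and 267 were higher, after scaling to library totals with TMM factors. Scaled to library totals without TMM factors, 221 were lower and 333 higher, and with DESeq2 157 were lower and 207 higher. With a library left out, the number lower moved to either side of 268. These are a selection of genes made before deposit, and food, bacterial strain and scale differ from the sel-1 counts, so the values stand side by side with no test. Only 1 gene (0.0518%) fell by at least the 63.0-fold of the upstream first-block region. It was fbxa-61, at levels scaled to library size (CPM) of 319 and 307 in wild type against 3.27 and 4.02. This F-box gene belongs to a family of similar genes, and how reads matching several members were counted is not given, so its own value is uncertain. The 38.7-fold loss in the trigger was reached by 2 genes (0.104%), fbxa-61 and T08B6.2. The 5.30-fold loss downstream was reached by 29 genes (1.5%), among them T28D6.4 (21.3-fold), B0001.5 (18.6-fold) and K02E2.6 (18.6-fold). No called rise on OP50 exceeded 3.64-fold. Only 1 and 2 OP50 genes thus reached the upstream and trigger losses of the counts as deposited, and this placement moved with the scale of the sel-1 counts. With those scaled to the second-block sum, 0 genes reached the upstream change and 1 reached that of the trigger. With them scaled to the first-block downstream count, 10 and 19 did. Both of these comparisons were chosen after the data were seen.

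**Figure D4:**
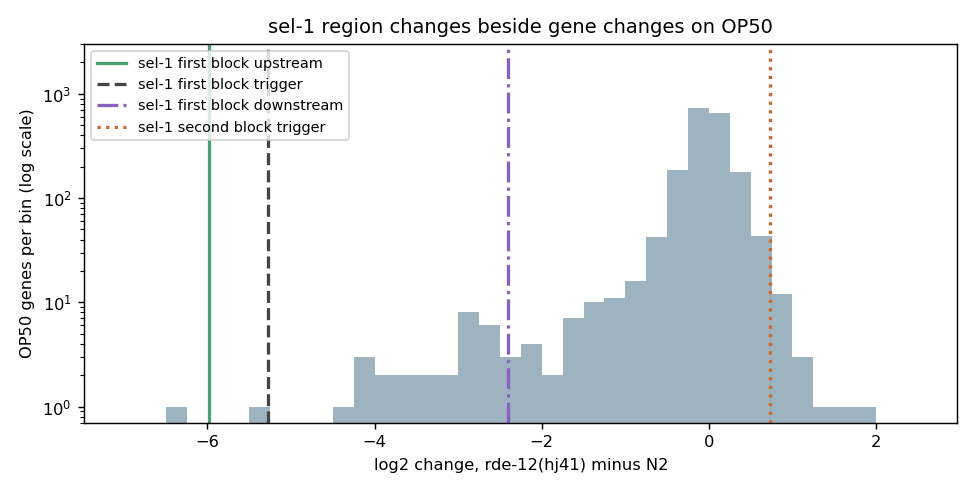
Number of genes (log scale) by log2 change of their small RNAs between rde-12(hj41) and N2 on OP50, in bins of 0.25, with vertical lines at the log2 changes of 4 sel-1 counts on trigger food. Left of the first-block upstream line (−5.98) lies 1 gene, left of the trigger line (−5.27) lie 2, and the second-block trigger line (0.73) lies among the rises.

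A list of 28 genes held genes of the RNAi machinery and the target sel-1, and small RNAs against 3 of them were measured on OP50. Of the 3, edgeR called 0 in either direction, where it called 27.7% of all genes tested (DESeq2 also called 0, and 0 had an unadjusted p under 0.05). The list was written from general knowledge, and 3 genes are too few to set it apart from that background. For ppw-1 (C18E3.7), an Argonaute needed for RNAi in the germline, the wild-type libraries held 2185 and 2159 CPM and the mutant ones 2253 and 2152. Its log2 change of 0.02 ± 0.0563 (SE) missed the threshold (edgeR adjusted p = 0.820). The Argonaute gene sago-2 (F56A6.1) had a log2 change of 0.05 ± 0.0606 (edgeR adjusted p = 0.622). For ekl-1 (F22D6.6), a Tudor domain protein that works with RNA-dependent RNA polymerases, the log2 change was −0.11 ± 0.0667 (edgeR adjusted p = 0.234). No gene counted on OP50 was matched to sel-1 or rde-12. These counts thus give no level of sel-1 small RNAs without the trigger and no check of the mutation.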

How the data were processed

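Small RNA of 20 to 26 nt was gel-purified, treated with TAP and made into libraries, per the labels' protocols. The authors deposited whole-number counts, not normalized, per region of sel-1 for the trigger food and per gene for OP50. The submitters' processing notes list bedtools, SAMtools and TopHat 1.4.1. The sources used here give no build, annotation, strand or handling of reads with several matches, each of which could shift counts between regions or genes. The 6 region counts of each library went into edgeR 4.0.16 (R 4.3.3) at equal library sizes, and their ratios with limma 3.58.1. Exact permutation tests used log2 of the count plus 1, percentages or log2 ratios. In the gene table, 22 of 1959 rows repeated another and were dropped, and 6 of 1937 genes were filtered; totals were 4270098 to 5563151 and TMM factors 0.987 to 1.03. Standard errors in edgeR are the log2 change over the root of F. Results named are all 6 region counts, the 5 largest OP50 losses and the tested RNAi genes. Scripts were tested on simulated data. Members and lists were chosen with earlier results of these data known. No sequence of the trigger was used here.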

Additional observations from a re-analysis of the deposited data

How the results depend on the processing

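Of 275 alternatives, 238 held: same sign and call, counts within 1.5 times, shares within 1 SD (which dropping a library cannot exceed). The 3 first-block losses kept their edgeR calls in every alternative that tested them, with log2 changes of −6.19 to −5.80 upstream, −5.52 to −5.07 in the trigger and −2.65 to −2.20 downstream when a library was left out (a lone sample is taken to vary like the rest). The number of regions called higher was 0 when scaled to the second-block sum, 3 when scaled to the first-block downstream count, 2 with limma and 0 to 1 with a library left out. Scaling to the second-block sum, nearly all trigger, fixed the second-block trigger near no change (0.00396, not called). It was 0.56 to 0.88 in fits on 3 libraries. Scaled to the first-block downstream count, the second-block upstream change turned to 2.37 (edgeR adjusted p = 0.00041) and the downstream one was called at 3.12 (0.000307). With limma the latter was called at 0.69 (adjusted p = 0.0273). In the fits on 3 libraries the second-block upstream change lay between −0.19 and 0.15, positive where N2 replicate 1 or rde-12 replicate 2 (0.11) was dropped, and second-block downstream between 0.32 and 1.05.

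With a replicate block, 0 regions were called higher in edgeR and the second-block trigger was at 0.72 (adjusted p = 0.0839). Deviations of same-numbered libraries correlated at 0.747 over the 6 counts, which with 2 pairs is not taken as pairing. With the block, limma gave all ratios the same spread and called 2 more, upstream per trigger and upstream per downstream count of the second block (−0.75 and −0.71).

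Without regions averaging under 100 counts, all 6 remaining ratios were called (lower with the earlier region on top), against 12 of 15. The ratio of second-block trigger to downstream turned from 0.03 to −0.21 when N2 replicate 2 was dropped and to −0.17 when rde-12 replicate 1 was (range up to 0.28). As shares of both blocks together, the differences were −13.5 percentage points upstream, −25.9 in the trigger and 18.98 downstream. The second-block upstream and downstream shares then turned from −0.268 and −0.00332 to 0.0839 and 0.0660. Within its block the latter lay between −0.0611 and 0.0545 in fits on 3 libraries, positive when N2 replicate 2 or rde-12 replicate 1 (0.0440) was dropped. With sel-1 scaled to the second-block sum (added after the data were seen), 0, 1 and 14 OP50 genes reached the upstream, trigger and downstream changes, and scaled to first-block downstream 10 and 19 reached the first 2. The cause was not tested.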
